A study of Papio anubis with 60 samples.

Results

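The regions described here are stretches of acetylated chromatin that lay away from the larger H3K4me3 domains and were found in the embryonic stem cells (ESC) and not in the induced pluripotent stem cells (iPSC) of the olive baboon, Papio anubis. A member is a peak of the ESC H3K27ac list on chromosomes 1 to 20 that was at least 300 bp wide. It had no iPSC H3K27ac peak within 1 kb and lay over 1 kb from every domain of 2 kb or more that was made by joining the H3K4me3 peaks of both cell types within 1 kb. There were 22841 such regions among the 387478 peaks of the ESC H3K27ac list, and they are called ESC-only distal regions below. They covered 8.97 Mb, or 0.346% of chromosomes 1 to 20. The members were chosen by measured H3K27ac and H3K4me3, so their presence in the ESC list and absence from the iPSC list is a description and not a result.

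The ESC were of lines B4 and B15 and the iPSC of lines 160-2 and M14939#3, all untreated and all grown on feeder cells. For each cell type, chromatin immunoprecipitation with sequencing (ChIP-seq) was done for H3K4me3, H3K27ac, H3K27me3 and H3K9me3 with 3 replicates of each of 2 lines and with inputs, 60 libraries in all, each from 50000 cells whose chromatin had been cut with micrococcal nuclease. The deposited data are 8 lists of peaks, with a single list for every mark in either cell type. Each line belongs to 1 cell type, so differences between cell types and between lines cannot be told apart, and a part played by feeder cells was not tested.

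Distal H3K27ac is the usual mark of active enhancers, the sequences that bind transcription factors and raise the output of promoters at a distance. H3K4me3 marks promoters and is weak or missing at most enhancers. H3K27me3 is laid down by Polycomb complexes at silent developmental genes, and H3K9me3 marks constitutive heterochromatin and silenced repeats. In pluripotent stem cells, enhancers turn over quickly when the cell state shifts, while promoters tend to keep H3K4me3, and reprogrammed cells are known for regions of H3K9me3 that resist resetting.

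No list had a replicate, so no p-value was computed. The percentages below carry 95% Wilson intervals, which cover counting error only, and the SD over the 20 autosomes is given as a measure of spread. Neighbouring regions and chromosomes are not independent samples of a cell type. The ESC H3K27ac list was the longer one, with 376101 peaks against 213657 in iPSC on chromosomes 1 to 20, and the depth behind the lists is unknown. A pair of other sets is given beside the members. The first is the 50465 shared distal regions, which are ESC H3K27ac peaks of the same width and distance that did have an iPSC peak within 1 kb. The second is the 2092 iPSC-only distal regions, found by the same rule with the cell types exchanged.

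The ESC-only distal regions were narrow and of moderate strength. Their median width was 357 bp, with an interquartile range of 323 to 426 bp, against 399 bp (338 to 512 bp) in the shared distal regions. The fold enrichment over background, the value of each peak given by the authors' peak caller, had a median of 2.75 in the ESC-only regions (interquartile range 2.36 to 3.20) and 3.22 in the shared regions (2.68 to 3.92). The median −log10 q was 5.74 against 8.58. The ESC-only set therefore held the weaker part of the distal ESC list and overlapped the shared set over most of its range. Of the 73306 distal ESC peaks, 31.2% were ESC-only. That share was 40.2% among peaks of 300 to 349 bp and 4.62% among those of 1000 bp or more. By strength it was 50.8% (49.97 to 51.6) in the lowest of 5 equal groups of −log10 q and 8.27% (7.83 to 8.72) in the highest.

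Regions on both sides of each limit had like values. The 2617 members less than 10 bp above the width limit had a median fold of 2.62, and the 2902 peaks up to 10 bp under it that met the other conditions had 2.60. Members with an iPSC H3K27ac peak up to 200 bp beyond the 1 kb limit numbered 1016, with a median fold of 2.76, and the 1146 peaks with one up to 200 bp inside it had 2.74. There were 165 members up to 200 bp beyond the limit around an H3K4me3 domain, with a median fold of 2.75, and 100 otherwise fitting peaks up to 200 bp inside it, with 2.68. Joined H3K4me3 stretches up to 200 bp too short to count as domains lay within 1 kb of 384 members with a median fold of 2.91. Domains less than 200 bp above the 2 kb limit kept out 364 peaks, with a median fold of 2.88.

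The number of ESC-only regions went with the length of the ESC list. With the ESC list shortened, by −log10 q, to 213657 peaks as in iPSC, there were 11232 members, which was 22.9% of the distal ESC peaks left. Counted against that shortened list, 6782 iPSC peaks were iPSC-only, 22.2% of the distal iPSC peaks. With the full lists the shares were 31.2% for ESC and 6.86% for iPSC. The members are thus regions that passed the authors' threshold in ESC and had no peak past it in iPSC, and weak iPSC acetylation under that threshold is not seen.

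Small H3K4me3 peaks lay on many members, and more often in the ESC list than in the iPSC list. An ESC H3K4me3 peak overlapped 7899 members, or 34.6% (34.0 to 35.2), and an iPSC H3K4me3 peak overlapped 5628, or 24.6% (24.1 to 25.2). Over all distal ESC peaks these shares were 48.5% and 44.1%. The H3K4me3 lists themselves covered 5.20% of chromosomes 1 to 20 in ESC and 5.42% in iPSC, so the H3K4me3 list of ESC was not the longer one by coverage. The rule removed domains of 2 kb or more and left smaller H3K4me3 stretches in place. The ESC H3K4me3 peaks on members had a median width of 358 bp, and 14122 members (61.8%) had no H3K4me3 peak of either list on them. A further limit of 1 kb left 11934 members (52.2%) free of any H3K4me3.

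The difference in H3K4me3 followed the difference in H3K27ac in direction. Among members with H3K4me3 in one list alone, 3091 had it in ESC and 820 in iPSC, so that ESC held 79.0% (77.7 to 80.3) of them. Of all distal ESC peaks, 10.2% had H3K4me3 in ESC and not in iPSC and 5.85% had the converse; of the members these were 13.5% and 3.59%. In the iPSC-only distal regions the order was turned, with 72 regions marked in ESC alone and 349 in iPSC alone. In the shared distal regions the counts were close, 4404 and 3468. By chromosome, the ESC share of members with H3K4me3 exceeded the iPSC share by 10.01 points ± 1.63 (SD over 20 autosomes), and the excess was found on 20 of 20. In the shared regions the same excess was 1.94 points ± 1.35, also on 20 of 20.

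**Figure D1:**
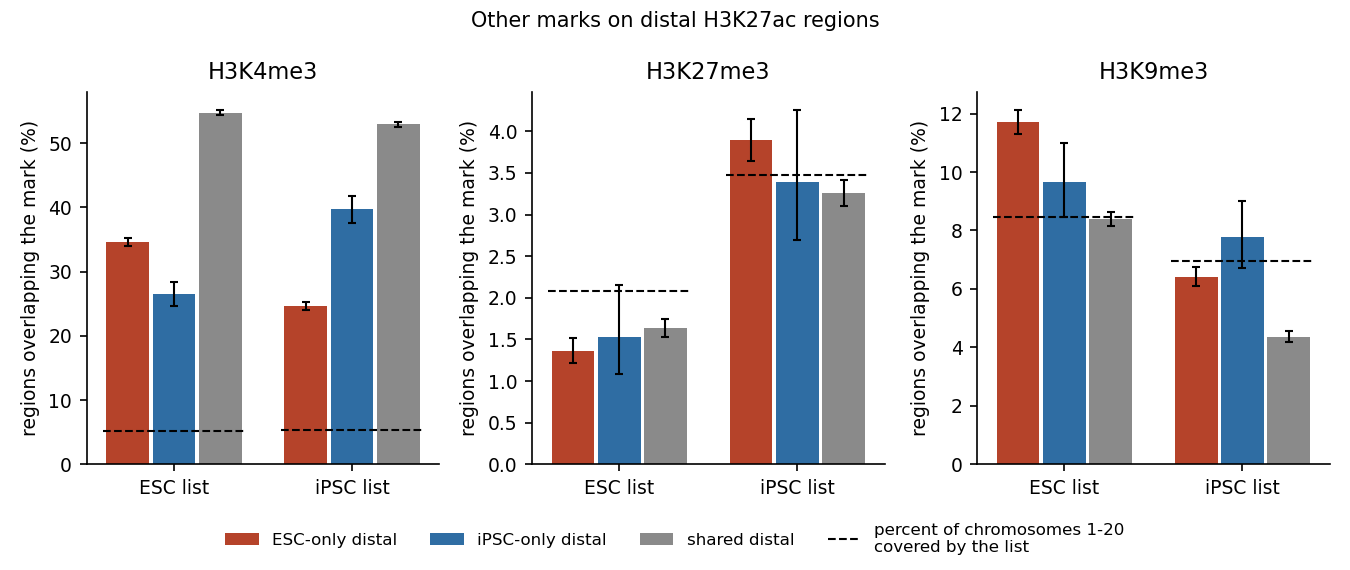
Percent of distal H3K27ac regions that share at least 1 bp with a peak of H3K4me3, H3K27me3 or H3K9me3 in the ESC list or the iPSC list. Bars are ESC-only, iPSC-only and shared distal regions, error bars are 95% Wilson intervals, and dashed lines give the percent of chromosomes 1 to 20 that each list covers. The dashed lines count sequence and the bars count whole regions, so they are unlike measures. H3K4me3 stands at 34.6% in the ESC list and 24.6% in the iPSC list for ESC-only regions, and H3K9me3 at 11.7% and 6.42%.

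The H3K4me3 on members was centred on the acetylated stretch. In the ESC-only regions, ESC H3K4me3 covered 23.3% of the sequence within 250 bp of the centre and 6.69% at 8 to 10 kb. iPSC H3K4me3 covered 15.9% at the centre and 6.49% at 8 to 10 kb. The lists thus differed at the centre and were close at 8 to 10 kb. In the shared regions the centre was covered to 39.2% in ESC and 37.9% in iPSC. At 250 to 1000 bp from the centre, ESC H3K4me3 covered 4.93% around the ESC-only regions and 10.1% around the shared ones, with domains of 2 kb or more kept over 1 kb away from both by the rule.

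**Figure D2:**
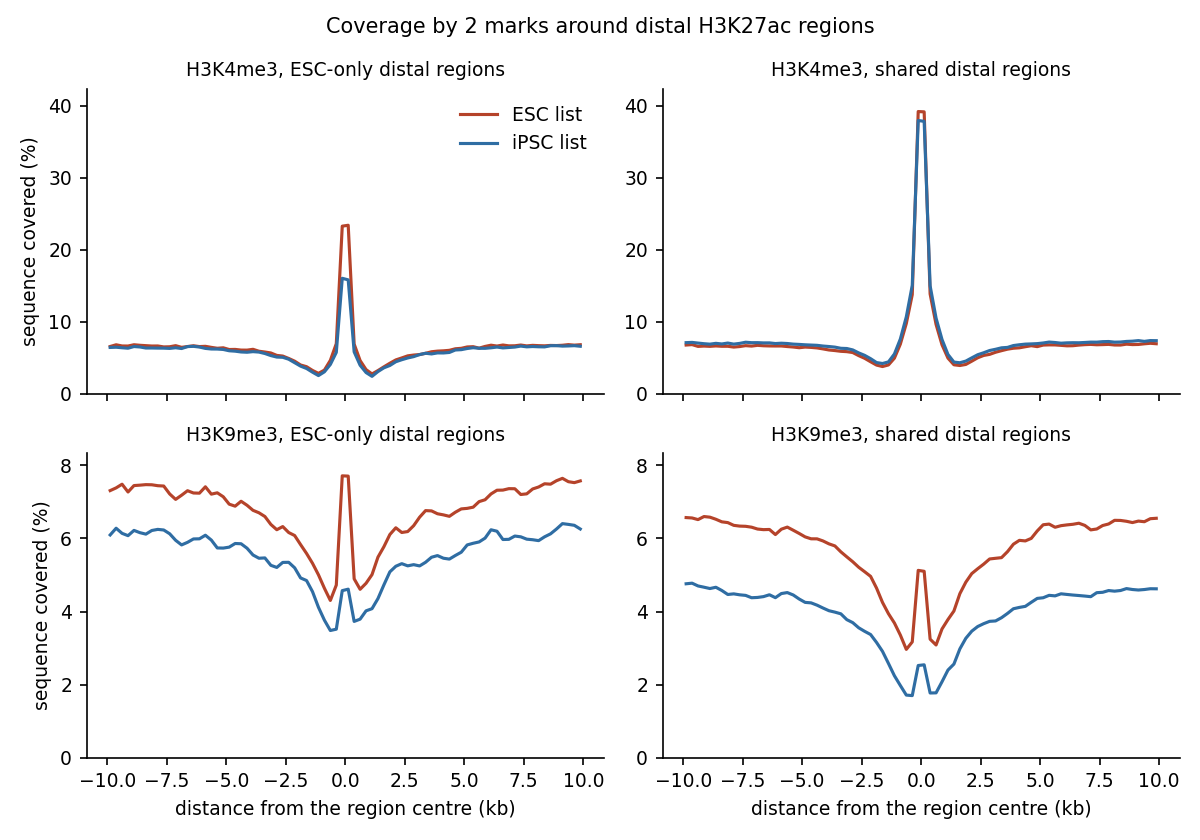
Percent of sequence covered by H3K4me3 (upper row) and H3K9me3 (lower row) peaks in steps of 250 bp from 10 kb before to 10 kb after the centre of ESC-only distal regions (left) and shared distal regions (right), with the ESC list in red and the iPSC list in blue. At the centre of ESC-only regions the ESC list exceeds the iPSC list for both marks, 23.3% against 15.9% for H3K4me3 and 7.71% against 4.59% for H3K9me3. The same order is found at the centre of shared regions, 39.2% against 37.9% and 5.11% against 2.53%.

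H3K9me3 lay on more of the ESC-only regions than of the shared distal regions in both cell types. An ESC H3K9me3 peak overlapped 2674 members, or 11.7% (11.3 to 12.1), against 8.40% (8.16 to 8.64) of the shared regions and 9.43% of all distal ESC peaks. An iPSC H3K9me3 peak overlapped 1467 members, or 6.42% (6.11 to 6.75), against 4.36% (4.19 to 4.55) of the shared regions and 5.01% of all distal ESC peaks. Of the iPSC-only distal regions, 9.66% lay under ESC H3K9me3 and 7.79% under iPSC H3K9me3. Both shares were above those of the shared regions, though for the ESC list the intervals overlapped. For the iPSC list the share was also above that of members, with overlapping intervals. A higher share than in shared regions was thus not particular to ESC-only regions. The H3K9me3 lists covered 8.46% of chromosomes 1 to 20 in ESC and 6.96% in iPSC. Counted by sequence in the same way, they covered 8.35% of the sequence of members in ESC and 4.85% in iPSC. For the sequence of shared regions the values were 5.43% and 2.64%. By chromosome, the overlapped share of members exceeded that of shared regions by 3.52 points ± 1.56 for the ESC list, on 20 of 20 autosomes. For the iPSC list the excess was 1.99 points ± 2.40, on 18 of 20. Of the members, 941 bore H3K9me3 in both lists. ESC alone had it on 1733 (7.59%, where all distal ESC peaks had 6.07%), and iPSC alone on 526 (2.30%, where all distal ESC peaks had 1.65%). The iPSC H3K9me3 peaks on members were broad, with a median width of 844.5 bp against 480 bp on shared regions.

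H3K9me3 in ESC coincided with the acetylated stretch itself in part of the members. ESC H3K9me3 covered 7.71% of the sequence within 250 bp of the centre of ESC-only regions, 4.66% at 250 to 1000 bp and 7.47% at 8 to 10 kb. In the shared regions these values were 5.11%, 3.22% and 6.51%. The iPSC list gave 4.59%, 3.72% and 6.19% around the ESC-only regions. A narrow rise at the centre was thus present in both lists and around both sets. Members under ESC H3K9me3 had a median fold of H3K27ac of 2.74, against 2.75 in the other members. Peak lists do not tell whether both marks sat in the same cells.

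H3K27me3 was rare on the ESC-only regions in ESC. It overlapped 311 members, or 1.36% (1.22 to 1.52), against 1.64% (1.53 to 1.75) of shared regions and 1.55% of all distal ESC peaks, while the ESC list covered 2.08% of chromosomes 1 to 20. In iPSC, H3K27me3 overlapped 889 members, or 3.89% (3.65 to 4.15), against 3.26% (3.11 to 3.42) of shared regions and 3.46% of all distal ESC peaks, with 3.47% of the chromosomes covered. By chromosome the difference between members and shared regions was smaller than its spread, at -0.31 points ± 0.574 for the ESC list, with members higher on 5 autosomes and lower on 15, and 0.431 points ± 2.30 for the iPSC list, with members higher on 8 and lower on 12. Members with H3K27me3 in iPSC alone numbered 814 (3.56%, where all distal ESC peaks had 2.93%). Those with it in ESC alone numbered 236 (1.03%, the same as the 1.03% of all distal ESC peaks). Counted by sequence, H3K27me3 covered 0.806% of the sequence of members in ESC and 2.80% in iPSC. On chromosomes 1 to 20 it covered 2.08% and 3.47%. In all, 13384 members (58.6%) had none of the other marks in ESC, against 42.0% of shared regions, and 6553 (28.7%) had H3K4me3 alone, against 48.3%.

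Because ESC-only regions were weaker than shared ones, the marks were also read within the 5 groups of equal number by −log10 q of the H3K27ac peak. In the highest group, ESC H3K4me3 lay on 55.4% of the 1212 members and iPSC H3K4me3 on 38.4%. The shared regions of that group had 76.0% and 71.8%. It ran from a −log10 q of 12.3 to 125, and the strongest member reached 53.6. Whether members and shared regions were of like strength inside that group was not tested. In the lowest group the 7445 members had 27.8% and 20.4%, and the shared regions 35.5% and 36.5%. In each of the 5 groups, members had less H3K4me3 of either list than shared regions and more of it in ESC than in iPSC. ESC H3K9me3 lay on 11.04% to 13.6% of members in the 5 groups and on 7.87% to 8.70% of shared regions, and iPSC H3K9me3 on 6.17% to 8.17% and on 4.01% to 5.06%. H3K27me3 lay on more of the members than of the shared regions in the lower 4 groups, from 1.16% against 0.693% in the lowest to 1.48% against 1.24% in the fourth for the ESC list, and from 3.60% against 1.91% to 4.20% against 2.38% for the iPSC list. In the highest group members had the lower share, 2.48% against 3.64% in ESC and 6.02% against 6.33% in iPSC. The lower share of all members under ESC H3K27me3 was thus not found within the lower 4 groups.

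**Figure D3:**
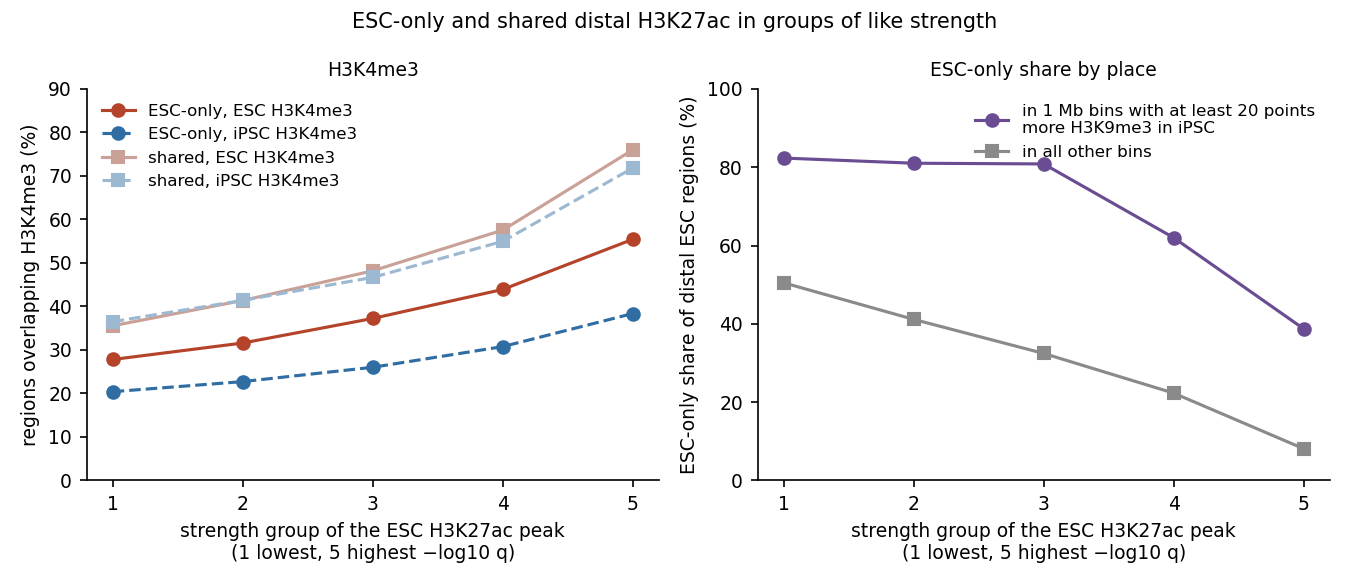
Left, percent of ESC-only regions (circles) and shared regions (squares) that overlap H3K4me3 of the ESC list (solid) or the iPSC list (dashed), in 5 equal groups of distal ESC H3K27ac peaks from the lowest to the highest −log10 q. Right, percent of distal ESC peaks that are ESC-only in the same groups, inside the 1 Mb bins with at least 20 points more H3K9me3 coverage in iPSC (purple) and in all other bins (grey); the bins stand at 82.4% in the lowest group and 38.7% in the highest, above 50.5% and 8.07% elsewhere.

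ESC-only regions lay farther from other members than from ESC acetylation outside the set, which was the much larger group. The median distance to the nearest other member was 24855 bp, and to the nearest ESC H3K27ac peak that was not a member 2014 bp. Peaks that were not members include those that failed the rule by width alone. Members were 22841 of the 376101 ESC H3K27ac peaks on chromosomes 1 to 20, so these distances are to sets of very unlike size. The parts of set size and of the width limit in this contrast were not tested. The nearest H3K4me3 domain lay at a median of 25650 bp, against 23474 bp for shared regions. The nearest iPSC H3K27ac peak lay at a median of 4970 bp. When members were joined at the stitching distance that is usual for super-enhancers, 18030 clusters were formed, of which 14867 held 1 member. Clusters of 5 or more numbered 168 and held 1061 members, and 14 clusters held 10 to 16.

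The share of distal ESC peaks that were ESC-only was higher near the ends of the chromosomes. Within 5 Mb of an end it was 41.6% (40.6 to 42.5), or 4242 of 10209 peaks, against 29.5% (29.1 to 29.8) farther in. By chromosome it was 41.4% ± 4.92 near the ends and 29.8% ± 1.78 farther in (SD over 20 autosomes), and it was higher near the ends on 20 of 20 autosomes. The difference ran from 1.42 points on chromosome 2 to 20.4 points on chromosome 10. In steps of distance the share was 43.3% in the first 1 Mb, 44.1% from 1 to 2 Mb, 39.9% from 2 to 5 Mb, 34.2% from 5 to 10 Mb, 29.95% from 10 to 20 Mb and 28.6% beyond. The ends were taken as position 0 and the furthest peak end of any of the 8 lists.

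Both the density of members and that of ESC acetylation were higher near the ends. Within 5 Mb of an end there were 21.2 members and 29.8 shared regions per Mb, against 7.77 and 18.6 farther in. These ends held 18.6% of the members, where all distal ESC peaks had 13.9% there and the ends made up 7.71% of the sequence. H3K27ac covered 5.95% of the sequence near the ends and 3.78% farther in for the ESC list, and 2.10% and 2.10% for the iPSC list. For the other marks, coverage near the ends and farther in was 7.86% and 4.98% for ESC H3K4me3, 7.10% and 5.28% for iPSC H3K4me3, 13.8% and 8.01% for ESC H3K9me3, and 11.8% and 6.56% for iPSC H3K9me3. It was 3.89% and 1.93% for ESC H3K27me3 and 7.96% and 3.10% for iPSC H3K27me3. The median −log10 q of the distal ESC peaks was 7.19 near the ends and 7.52 farther in. The share of ESC-only regions was higher near the ends in each of the 5 groups of strength, from 60.8% against 49.1% in the lowest to 13.5% against 7.53% in the highest. Base composition and mappability, which can change along chromosomes, were not measured.

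**Figure D4:**
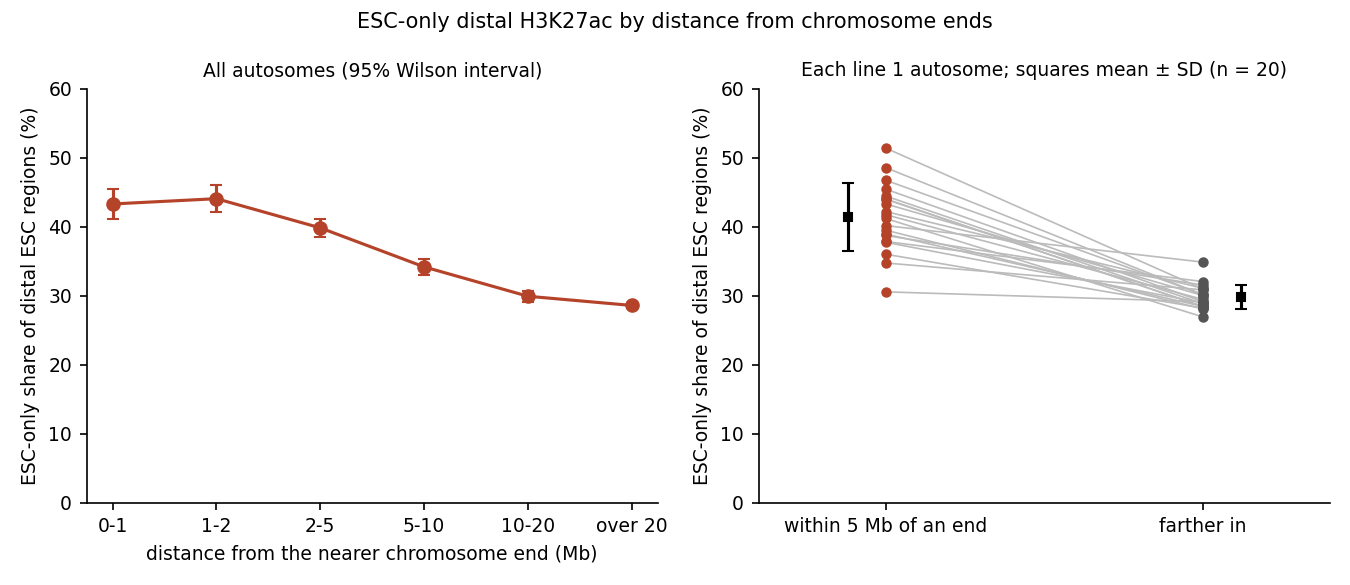
Percent of distal ESC H3K27ac peaks that are ESC-only, by distance from the nearer chromosome end for all autosomes together (left, with 95% Wilson intervals) and within 5 Mb of an end against farther in for each autosome (right, squares are mean ± SD over 20). Each of the 20 lines falls to the right, with means of 41.4% near the ends and 29.8% farther in.

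Members near the ends bore less H3K4me3 than those farther in. ESC H3K4me3 lay on 27.4% of the members within 5 Mb of an end and on 36.2% of those farther in, and iPSC H3K4me3 on 16.9% and 26.4%. The shared regions had 39.5% and 56.8% in ESC and 34.1% and 55.4% in iPSC. ESC H3K27me3 lay on 2.24% of the members near the ends and on 1.16% of those farther in, and iPSC H3K27me3 on 7.47% and 3.08%. The shared regions had 2.16% and 1.57% in ESC and 3.85% and 3.18% in iPSC, and the coverage of the sequence by H3K27me3, given above, was also higher near the ends.

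In stretches where iPSC carried more H3K9me3 than ESC, a larger share of the distal ESC peaks was ESC-only. In 29 bins of 1 Mb, the H3K9me3 coverage of iPSC exceeded that of ESC by 20 points or more, with a mean of 13.6% in ESC and 61.8% in iPSC. These bins held 539 distal ESC peaks, of which 380, or 70.5% (66.5 to 74.2), were ESC-only, against 30.9% (30.5 to 31.2) in all other bins. They held 13.1 members and 5.48 shared regions per bin, against 8.72 and 19.5 elsewhere. The bins formed 17 blocks on 9 chromosomes, and in each of the 17 the ESC-only share was above the 31.2% of all distal ESC peaks, from 36.8% to 91.2%. Mean H3K27ac coverage of the bins was 2.51% in ESC and 0.461% in iPSC, and that of the other bins 3.96% and 2.11%. The bins held 1.66% of all members. The 8 bins with at least 10 points more H3K9me3 coverage in ESC also had a higher share than the 30.7% of the 2552 bins under 10 points apart, with 132 of 305 distal ESC peaks ESC-only, or 43.3% (37.8 to 48.9), and 16.5 members per bin. At that same limit of 10 points, the bins with more H3K9me3 in iPSC had an ESC-only share of 66.9%. The 15 bins with 10 to 20 points more in iPSC had 119 of 207, or 57.5% (50.7 to 64.0). In the 8 bins higher in ESC, ESC H3K9me3 lay on 14 of the 132 members (10.6%), against 11.7% of all members. Peak strength and distance from the chromosome ends were not looked at for these 8 bins. The higher share in the 29 bins was found in each of the 5 groups of peak strength.

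Since the 29 bins were chosen for their H3K9me3, the difference in that mark on the members inside them follows from the choice and is given as a description. ESC H3K9me3 overlapped 57 of the 380 members (15%) and iPSC H3K9me3 319 (83.9%). ESC H3K27me3 overlapped 11 (2.89%) and iPSC H3K27me3 283 (74.5%). ESC H3K4me3 lay on 178 (46.8%) and iPSC H3K4me3 on 82 (21.6%). The 159 shared regions of the bins had iPSC H3K9me3 on 52.2% and iPSC H3K27me3 on 41.5%. Outside the bins, iPSC H3K27me3 lay on 2.70% of members and 3.14% of shared regions, so that outside the bins the share of members was the lower one. iPSC H3K9me3 outside the bins lay on 5.11% of members and 4.21% of shared regions.

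The blocks differed in how many members they held. At 88 to 90 Mb of chromosome 10, 101 of 115 distal ESC peaks were ESC-only, with H3K9me3 over 21.6% of the sequence in ESC and 72.4% in iPSC. The highest share, 31 of 34 peaks, was that of 175 to 177 Mb of chromosome 3, with H3K9me3 over 13.8% in ESC and 79.4% in iPSC. At 5 to 9 Mb of chromosome 20, 50 of 71 peaks were ESC-only, and at 131 to 135 Mb of chromosome 8, 24 of 32. The lowest share, 7 of 19 peaks, was that of 129 to 130 Mb of chromosome 8, with H3K9me3 over 14.3% in ESC and 39.9% in iPSC. The bins within 5 Mb of an end held 196 of the 380 members. Without the bins, the ESC-only share was 40.7% near the chromosome ends and 29.3% farther in.

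The cluster with the most ESC-only sequence lay in the block of chromosome 10, at 89254653 to 89307528, a span of 52.9 kb with 16 members. Coordinates are those of the authors' lists, counted from 1, in a genome build that the labels do not name. The span held 29 ESC H3K27ac peaks over 10.4 kb and 0 iPSC H3K27ac peaks. H3K9me3 covered 11.7% of it in ESC and 93.5% in iPSC, and H3K27me3 0% in ESC and 72.7% in iPSC. Neither list had H3K4me3 in it, and the nearest H3K4me3 domain was 66.5 kb away. The fold enrichment of the 16 members ran from 1.70 to 3.51, with a median of 2.46.

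**Figure D5:**
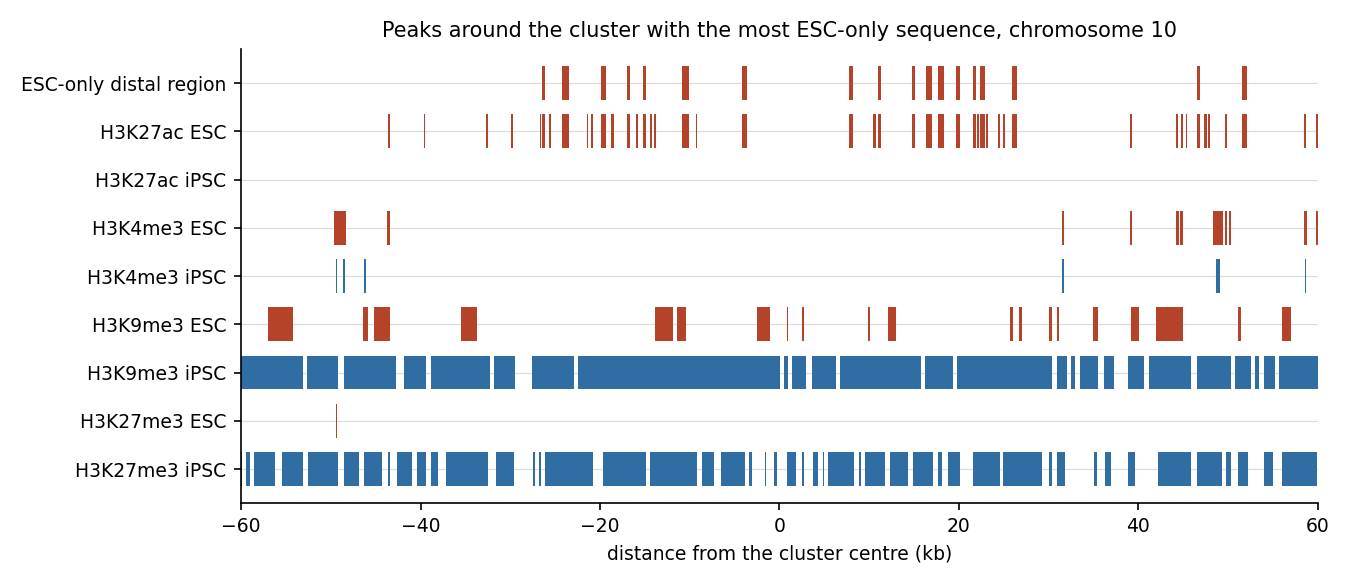
Peaks of the 4 marks in ESC (red) and iPSC (blue) within 60 kb of the centre of the cluster of chromosome 10, each box drawn from the start to the end of a peak, with the ESC-only distal regions in the top row. The row of iPSC H3K27ac is empty, and iPSC H3K9me3 and H3K27me3 run across most of the window.

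The other clusters with the most ESC-only sequence lay in a different setting. The second, at 2049812 to 2088955 of chromosome 14, held 15 members and 0% H3K9me3 in both lists, and its H3K27ac peaks summed to 13.6 kb in ESC and 1.72 kb in iPSC. The third, at 7631916 to 7677703 of chromosome 15, held 15 members, and its H3K27ac sums were 9.85 kb in ESC and 1.078 kb in iPSC. The fourth, at 72752607 to 72799537 of chromosome 16, held 12 members, with 15.45 kb and 2.29 kb. The fifth, at 3866541 to 3922139 of chromosome 15, held 14 members, with 21.6 kb and 4.79 kb. In the last 3 of these, H3K9me3 covered at most 1.66% in ESC and 0.764% in iPSC. H3K4me3 domains of 2 kb or more lay inside the spans of chromosomes 14 and 16 and that at 7631916 of chromosome 15. By the rule, the members there were over 1 kb from them. H3K4me3 covered 9.34%, 7.82% and 7.11% of these spans in ESC and 5.08%, 8.20% and 5.32% in iPSC. The span at 3866541 of chromosome 15 lay 2.5 kb from a domain, with H3K4me3 over 0.595% in ESC and 0.279% in iPSC. Of the 14 clusters with 10 or more members, 12 lay within 5 Mb of a chromosome end and 4 had no iPSC H3K27ac. The same counts over all clusters are not given here. Within 5 Mb of an end lay 18.6% of all members, at 21.2 per Mb against 7.77 farther in. The part of that density in the count of 12 was not tested.

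Of the members with the highest fold enrichment, the first 3 all lay on chromosome 19 and under iPSC H3K9me3. The highest, at 8456323 to 8457000, was 678 bp wide with a fold of 9.04, and it lay fully under ESC H3K4me3. ESC H3K9me3 covered 0% of it and iPSC H3K9me3 96.2%. The second, at 20395923 to 20396586, had a fold of 7.68, full ESC H3K4me3, and H3K9me3 over 0% in ESC and 78.6% in iPSC. The third, at 19788229 to 19788866, had a fold of 7.50, full ESC H3K4me3, and H3K9me3 over 18.97% in ESC and 100% in iPSC. iPSC H3K4me3 covered 22.9%, 96.2% and 95.6% of them. In the 20 kb around each, H3K9me3 covered 12.4%, 5.59% and 33.0% in ESC and 38.3%, 56.7% and 55.1% in iPSC.

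The next 7 by fold lay at 35220135 to 35220490 of chromosome 16, 88753976 to 88754280 of chromosome 13, 133531571 to 133531945 of chromosome 6, 129311407 to 129311766 of chromosome 2, 26770814 to 26771233 of chromosome 9, 50560900 to 50561259 of chromosome 17 and 124326267 to 124326957 of chromosome 7. Their folds ran from 7.17 on chromosome 16 to 6.28 on chromosome 7, and none of them was under iPSC H3K9me3. Those of chromosomes 2 and 17 bore no other mark in either cell type. Of the 10 members together, 8 overlapped ESC H3K4me3 and 7 iPSC H3K4me3, 3 overlapped ESC H3K9me3 and 3 iPSC H3K9me3, and 0 overlapped ESC H3K27me3 and 3 iPSC H3K27me3. Of all distal ESC peaks, 48.5% overlapped ESC H3K4me3 and 44.1% iPSC H3K4me3. For H3K9me3 these shares were 9.43% in ESC and 5.01% in iPSC, and for H3K27me3 1.55% and 3.46%. In the highest group of −log10 q, which holds these 10, ESC H3K4me3 lay on 55.4% of members and 76.0% of shared regions. iPSC H3K4me3 lay on 38.4% and 71.8%.

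Of the 5 widest members, 4 were near chromosome ends, where 18.6% of all members and 13.9% of all distal ESC peaks lay within 5 Mb of one. The widest, 1693 bp at 2515661 to 2517353 of chromosome 19, had a fold of 3.42, with H3K4me3 over 41.6% in ESC and 15.6% in iPSC. The next were 1444 bp at 72496618 to 72498061 of chromosome 16 and 1393 bp at 824343 to 825735 of chromosome 10, both without another mark in either list. The fourth, 1290 bp at 1522224 to 1523513 of chromosome 1, lay under H3K4me3 over 100% in ESC and 66.0% in iPSC. These 4 lay 0.825 to 2.52 Mb from an end. The fifth, 1217 bp at 73994591 to 73995807 of chromosome 7, lay 74.0 Mb from one.

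ESC H3K27me3 covered 48 members in full, or 0.210% (0.159 to 0.278), against 38 shared regions, or 0.0753% (0.0549 to 0.103), and 0.117% of all distal ESC peaks. Members had a median width of 357 bp against 399 bp in shared regions, and the part of width in this difference was not tested. Of the 48 members, 34 overlapped ESC H3K4me3 and 18 iPSC H3K27me3. ESC H3K4me3 lay on 34.6% of all members and 48.5% of all distal ESC peaks, and iPSC H3K27me3 on 3.89% and 3.46%. The same counts were not made for the 38 shared regions, so whether they differ from the 48 members was not tested. The 3 with the highest fold lay at 79743689 to 79744066 of chromosome 10 (fold 3.87), at 9966698 to 9967126 of chromosome 12 (3.63) and at 55117544 to 55117886 of chromosome 18 (3.36). None of the 3 had H3K27me3 in iPSC. That of chromosome 18 lay fully under H3K4me3 in both cell types, that of chromosome 12 over 70.9% in ESC and 0% in iPSC, and that of chromosome 10 in neither.

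Members were found on all 20 autosomes at 9.39 per Mb ± 2.75 (SD over 20 autosomes). The density was highest on chromosomes 10 and 19, at 15.8 and 15.6 per Mb, and lowest on chromosome 5, at 6.74 per Mb. Shared distal regions had 20.1 per Mb ± 4.28. They too were densest on chromosomes 10 and 19, at 30.6 and 27.4 per Mb, and had 16.3 per Mb on chromosome 5. The ESC-only share of distal peaks was 31.5% ± 2.12 by chromosome, from 28.3% on chromosome 11 to 36.3% on chromosome 19. The 1 Mb bins with the most members, 67 each, were those at 89 to 90 Mb of chromosome 10 and at 1 to 2 and 2 to 3 Mb of chromosome 14. In these, the members made up 67 of 79, 67 of 129 and 67 of 121 distal ESC peaks.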

How the data were processed

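The lists were made with MACS2, SAMtools 1.10, Picard and deepTools, per the submitters' processing notes. The sources used here do not give the aligner, the genome build, the calling threshold or how libraries and inputs were pooled. For every peak, each deposited list holds a fold enrichment, which is a ratio over background, and the −log10 of the q-value, both from the authors' peak caller. They served to describe and rank peaks inside one list. Starts were turned from 0-based to 1-based.

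The rule was applied with Python 3.11.15, pandas 2.3.3 and SciPy 1.17.1, with distances as the gap between peaks and overlap as at least 1 bp. Interval functions were tested on simulated intervals. Peaks called firm in the alternatives reached a −log10 q of 5 (narrow lists) or 2 (broad lists). The gene table at hand describes Panubis1.0, and on 12 of 20 autosomes its last gene end and the last peak end were more than 5 Mb apart, so no gene is named, and no sequence was read. Regions named are the 10 members highest by fold, the 5 widest, the 5 clusters with the most member sequence and the 3 highest by fold under full ESC H3K27me3, while blocks, bins and chromosomes were named after their values were seen. The members and lists were chosen with earlier results of these data known.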

Additional observations from a re-analysis of the deposited data

How the results depend on the processing

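The number of members, their shares under the 6 other lists, the number of clusters and the ESC-only shares near the ends and in the bins were computed again under other limits, and the other values were not. The members numbered 66588 with a width of at least 200 bp, 2852 with at least 500 bp, 11368 with no iPSC H3K27ac within 5 kb, 11934 when no H3K4me3 peak of any width lay within 1 kb, 13910 among firm ESC H3K27ac peaks and 11232 in the shortened ESC list. They stayed within 1.5 times of 22841 in the other 4 definitions, among them 22841 when overlapping peaks were merged first. Clusters numbered 20101 when joined within 5 kb.

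The shares of members under each list that moved out of their 95% interval are given here. With a width of at least 200 bp, members bore H3K4me3 28.3% in ESC and 20.1% in iPSC, H3K27me3 1.07% in ESC and 3.42% in iPSC, H3K9me3 10.9% in ESC. With at least 500 bp, the values were H3K4me3 44.5% in ESC and 31.3% in iPSC, H3K27me3 2.17% in ESC and 5.61% in iPSC, H3K9me3 13.4% in ESC and 7.75% in iPSC. When overlap alone with iPSC H3K27ac was barred, the values were H3K4me3 33.9% in ESC, H3K27me3 3.35% in iPSC, H3K9me3 10.7% in ESC and 5.73% in iPSC. With no iPSC H3K27ac within 5 kb, the values were H3K4me3 37.8% in ESC and 26.6% in iPSC, H3K27me3 1.59% in ESC and 5.71% in iPSC, H3K9me3 14.3% in ESC and 8.79% in iPSC. Over 5 kb from H3K4me3 domains, the values were H3K4me3 33.9% in ESC and 23.96% in iPSC, H3K27me3 1.21% in ESC, H3K9me3 12.3% in ESC and 6.77% in iPSC. With domains from firm H3K4me3 peaks, the values were H3K4me3 35.9% in ESC and 25.7% in iPSC. Over 1 kb from any H3K4me3 peak, the values were H3K4me3 0% in ESC and 0% in iPSC, H3K27me3 0.503% in ESC and 2.58% in iPSC, H3K9me3 9.77% in ESC and 4.63% in iPSC. Among firm ESC H3K27ac peaks, the values were H3K4me3 38.7% in ESC and 27.2% in iPSC. In the shortened ESC list, the values were H3K4me3 40.2% in ESC and 28.2% in iPSC, H3K27me3 4.29% in iPSC, H3K9me3 6.75% in iPSC. With at least 50% of a member covered, the values were H3K4me3 27.2% in ESC and 17.7% in iPSC, H3K27me3 0.722% in ESC and 2.71% in iPSC, H3K9me3 8.28% in ESC and 4.77% in iPSC. With firm peaks of the other mark, the values were H3K4me3 26.9% in ESC and 18.5% in iPSC, H3K27me3 0.499% in ESC and 2.08% in iPSC, H3K9me3 8.38% in ESC and 4.61% in iPSC.

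H3K4me3 was higher in ESC than in iPSC under 10 of 11 alternatives, and in the remaining one the definition leaves 0% in both lists. H3K27me3 was higher in iPSC and H3K9me3 higher in ESC under 11 of 11. With the limits as reported, these 2 directions were also those of the shared and the iPSC-only distal regions, so they were not particular to members. The ESC-only share of distal peaks was higher near chromosome ends under 12 of 12 alternatives, by 5.40 to 15.9 points, and in the bins with more iPSC H3K9me3 under 10 of 10, by 34.1 to 43.4 points. The alternatives for ends and bins were chosen after seeing the data. No paired analysis was possible because each cell type and mark has 1 list and no test was made, and for the same reason no library could be left out. How many peaks pass a caller's threshold varies with sequencing depth, and the depth of these libraries is unknown.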

Other observations

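The X chromosome, which the rule leaves out, was read in the same way. It held 146 ESC-only regions among 495 distal ESC peaks of at least 300 bp, or 29.5% (95% Wilson interval 25.6 to 33.7), and 74 iPSC-only regions among 345, or 21.4% (17.4 to 26.1). Of the 146 ESC-only regions of the X, ESC H3K4me3 lay on 74.7% and iPSC H3K4me3 on 47.3%. ESC H3K9me3 lay on 55.5% and iPSC H3K9me3 on 1.37%, and ESC H3K27me3 on 30.1% and iPSC H3K27me3 on 2.05%. The shared regions of the X had ESC H3K9me3 on 72.8% and ESC H3K27me3 on 26.6%.

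The summit of the H3K27ac peak, as the authors' caller gave it, fell in the middle 50% of the peak in 49.4% of ESC-only regions of the autosomes and in 60.2% of shared ones.

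Of the 6782 iPSC-only regions counted against the shortened ESC list, ESC H3K4me3 lay on 36.2% and iPSC H3K4me3 on 45.8%. ESC H3K9me3 lay on 8.61% of them and iPSC H3K9me3 on 5.57%. With the full ESC list 2092 regions were iPSC-only. Most of the 6782 thus had an ESC H3K27ac peak within 1 kb that the shortening took out. The same shares over all distal iPSC peaks are not given here.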
